A study of Homo sapiens with 24 samples.

Results

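The clustered histone genes were examined for their response to PRKCQ knockdown in cutaneous T cell lymphoma lines, with and without phorbol ester. The genes were taken by name, as every row whose symbol starts with HIST1H, HIST2H, HIST3H or HIST4H. This rule gave 90 of the 58780 genes listed under TPA, and 23 of the 13025 listed under DMSO. How genes were kept for the DMSO list is not stated. No histone gene passed an adjusted p under 0.05 in either treatment. In DMSO the listed members had wide-ranging fold changes, with HIST1H4J, an H4 gene, at the top, and in TPA their values lay closer to 0. In each treatment 19 of these 23 were positive. No difference between the treatments was called, and the fold changes may not be on the same scale.

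Histone proteins wrap DNA into nucleosomes: H2A, H2B, H3 and H4 form the core and H1 binds the linker. Most genes of these clusters are copied into messenger RNA in S phase, when new DNA needs packing, and these mRNAs are unusual in lacking a poly(A) tail. They end instead in a conserved stem-loop that SLBP, the stem-loop binding protein, holds while the U7 small nuclear RNA guides cleavage. Some members can also make longer, polyadenylated transcripts when the stem-loop is read through; the libraries here were made from poly(A)-selected RNA.

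The tested cells carried a hairpin against PRKCQ (shPRKCQ), which encodes protein kinase C theta, and the controls a non-targeting hairpin (NTC). Both hairpins were used in MyLa cells, which come from mycosis fungoides, and in HuT 78 cells, which come from Sézary syndrome. The groups with TPA were MyLa shPRKCQ, HuT 78 shPRKCQ, MyLa NTC and HuT 78 NTC given the phorbol ester at 10 ng/ml for 24 h, and the same combinations were given DMSO, the vehicle, for 24 h. Each group had 3 libraries, 24 in all. Knockdown was induced with 1 µg/ml doxycycline for 72 h or longer beforehand. The labels do not say whether NTC cells received doxycycline or whether a line was a clone, so drug and hairpin cannot be told apart here. The data are the authors' 2 comparison tables, 6 shPRKCQ against 6 NTC libraries over both lines together, with no value per library, so depth is unknown and the lines cannot be separated. The design text calls the replicates independent without saying whether they were separate cultures, so p-values measure only the spread between these libraries. Whether the authors' model had a term for the line is not given, so that spread may include the difference between the lines. In bulk RNA, fewer cells in S phase and less histone mRNA per cell cannot be told apart.

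PRKCQ itself was at 23.7% of the NTC level under TPA and 23.1% in DMSO, computed from the authors' deposited tables, and its negative sign set the direction: a negative log2 fold change means lower in shPRKCQ cells. Of 10 T cell markers, 9 had an adjusted p-value under TPA and 5 in DMSO, CD3D, CD3G and the T cell receptor constant genes TRAC, TRBC1 and TRBC2 in both. Of 9 markers of B, myeloid and epithelial cells, CD79A, MS4A1, CD68, EPCAM and KRT5 had an adjusted p-value under TPA and CD79A alone in DMSO; the tables give no levels for any of them.

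By name the 90 members were 8 H1, 23 H2A, 26 H2B, 17 H3 and 16 H4 genes, of which 71 are annotated as protein coding and 19 as pseudogenes. The large HIST1 cluster held 66 of them within 2168 kb of chromosome 6, and 2 HIST1 pseudogenes lie on chromosome 13. HIST2 had 17 members on chromosome 1, HIST3 had 4, also on chromosome 1, and HIST4H4 lies alone on chromosome 12. Under TPA, 75 members had a p-value, 54 of them also an adjusted p-value, and 15 had neither. The 15 include the genes HIST1H2AA, HIST1H2BA and HIST3H3, known as testis histones. In DMSO all 23 listed members had both: 12 H2B, 5 H4 and 4 H2A genes, with HIST1H1C for H1 and HIST1H3H for H3. The remaining 67 members were not analysed in DMSO, and the rule that kept genes there is not stated.

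The stem-loop is shown first because it is the element that ends most histone mRNAs in place of a poly(A) tail. The pattern searched, GG, any 2 bases, CTTTT, any base, AG, any base, GCC, was found on the transcript strand in 34 of the 90 members, against 45 of all 58721 annotated genes with a transcript sequence (0.077%). Many histone gene models stop at the end of the coding region, so a missing match says nothing of the gene. There were 5 forms among the members, and 1 gene of each is given, with the 16 bases of the stem-loop in capitals and 5 bases on either side, from GENCODE release 29 transcripts (GRCh38):
HIST1H4J: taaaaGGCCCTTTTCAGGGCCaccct
HIST2H4A: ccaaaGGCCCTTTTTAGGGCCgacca
HIST2H2BF: ccaaaGGCTCTTTTCAGAGCCacttc
HIST1H2AG: ccaacGGCTCTTTTCAGGGCCaccca
HIST1H2BC: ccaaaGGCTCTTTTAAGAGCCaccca

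The stem-loop lies at chr6:27824459-27824474 (plus strand) for HIST1H4J, chr1:149833032-149833047 (plus) for HIST2H4A and chr1:149811885-149811900 (minus) for HIST2H2BF. For HIST1H2AG it is at chr6:27133515-27133530 (plus) and for HIST1H2BC at chr6:26123472-26123487 (minus). The GGCCC stem of HIST1H4J was shared by 5 members and that of HIST2H4A by 3, all 8 of them H4 genes. The GGCTC stem with AGAGCC and a C in the loop, as in HIST2H2BF, was the commonest form, in 18 members of types H2A, H2B and H3. The form of HIST1H2BC was found in 5 members and that of HIST1H2AG in 3.

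Members listed in both tables were mostly those with an annotated read-through transcript. Of these 23, 17 had a transcript that runs over 100 bases past the stem-loop and 19 had a transcript with AATAAA or ATTAAA, the poly(A) signal, in its last 50 bases. Of the 31 members with an adjusted p-value under TPA that were not analysed in DMSO, 7 and 6 did. Of the 21 with a p-value but no adjusted p-value under TPA, 0 and 1 did. The longest annotated transcript had a median of 1694 bases in the first group, 488 in the second and 393 in the third. These are properties of gene models, and no test was made of them. HIST1H4J, the highest member in DMSO, was not among the 17. Its transcript ends 6 bases past the stem-loop, so its poly(A) signal match lies before the stem-loop and marks no read-through. In DMSO the 17 had a median log2 fold change of 0.40 and the 6 others one of 0.49.

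Under TPA the knockdown left every histone gene short of the threshold. By the authors' p-values 0 of the 54 members with an adjusted p-value were called, where 0.113% of all genes were, and 0 of 75 had an unadjusted p under 0.05, against 2.45% of all genes (1.27% higher and 1.18% lower in shPRKCQ cells). The fold change was above 0 for 51 of the 75 members (all genes 58.3%), with a median log2 fold change of 0.038 against 0.00054 over all genes. Among the 54, 35 were positive with a median of 0.13, against 0.011 over the 19417 genes with an adjusted p-value. An absolute log2 fold change over 0.5 was reached by 4 of the 75 members, where 5.03% of all genes reached it. A fold change of 0.00054 is shared by 2910 genes of the TPA table, among them HIST2H2BB, HIST1H1T, HIST1H4PS1 and HIST1H2BPS2, so these 4 members carry no direction. With p-values rescaled for their narrow spread over all genes, 3 of the 75 members were called, HIST1H1D and HIST2H4A higher and HIST1H3B lower, where 6.45% of all genes were. At an unadjusted p under 0.05 that rescaling gave 10 of 75 members and 16.9% of all genes, so neither count stands above the background. With the spread of genes with an adjusted p-value, 0 of 54 members were called and 3 had an unadjusted p under 0.05, against 0.582% and 7.39% of all such genes.

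H1 genes, which encode the linker histones, lay at both ends of the TPA range. HIST1H1D was at 0.64 in the authors' deposited table with an SE of 0.35, implied by its fold change and p-value (unadjusted p = 0.0686), the highest of all members. HIST1H1E was at -0.58 (SE 0.42, unadjusted p = 0.171) by the same authors' deposited table. The 95% intervals of both include 0, from -0.049 to 1.34 for HIST1H1D and from -1.40 to 0.25 for HIST1H1E. HIST1H1C, the H1 gene found in both tables, was at 0.17 in TPA and 0.18 in DMSO in the authors' deposited tables.

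H3 and H4 genes, whose proteins form the central tetramer of the nucleosome, had TPA medians of 0.015 over 14 genes and 0.14 over 15. The lowest of all members was HIST1H3B, at -0.63 (SE 0.37, unadjusted p = 0.0872) in the authors' deposited table, and HIST1H3G was at -0.24. HIST1H3F was the highest H3 gene, at 0.27 in the authors' deposited table. Among H4 genes the authors' deposited TPA table has HIST2H4A at 0.58 (SE 0.32, unadjusted p = 0.0671), HIST1H4I at 0.47, HIST1H4C at 0.39 and HIST1H4J at 0.30. HIST2H4B was lowest of them, at -0.49 (unadjusted p = 0.225), in the authors' deposited table.

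H2A and H2B genes, whose proteins pair as dimers on that tetramer, had TPA medians of 0.079 over 17 genes and 0.021 over 22. HIST2H2AA3 was highest of the H2A genes at 0.44 and HIST1H2AE lowest at -0.17 in the authors' deposited table. Among H2B genes, HIST2H2BF was at 0.47 and HIST1H2BD at 0.41 in the authors' deposited table. At the lower end HIST1H2BO was at -0.22, HIST1H2BE at -0.19 and HIST1H2BF at -0.17 in the authors' deposited table. Each of these genes had an unadjusted p above 0.2.

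**Figure D1:**
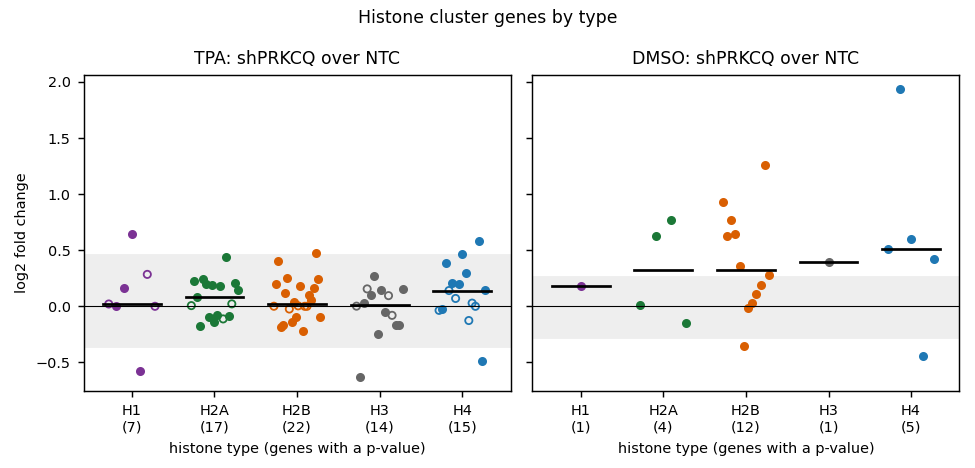
Log2 fold change of shPRKCQ over NTC for each histone cluster gene with a p-value, by histone type, in TPA (left) and DMSO (right); bars are medians, open circles have no adjusted p-value, and the grey band spans the central 90% of all genes with an adjusted p-value. The TPA points run from -0.63 to 0.64, and the DMSO points from -0.44 to 1.94 with H4 and H2B genes highest.

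In DMSO too, where 23 of the 90 members were analysed, no histone gene reached the threshold. Of the 23 members 0 were called by the authors' adjusted p-values, where 0.108% of all genes were. An unadjusted p under 0.05 was found for 3 members, all higher in shPRKCQ cells (3.04% of all genes had such a p, 1.37% higher and 1.67% lower). The fold change was above 0 for 19 of the 23 (all genes 52.3%), with a median log2 fold change of 0.40 against 0.0075 over all genes. An absolute log2 fold change over 0.5 was reached by 10 of the 23, all 10 positive, where 2.66% of all genes reached it. The implied SE was also wider for histone genes than for most genes, with a median of 0.39 against 0.17 over the genes in both tables. These 23 are a part of the members kept by a rule that is not stated. Under TPA too, the same 23 had a median of 0.17 with 19 positive. The 31 other members with an adjusted p-value under TPA had one of 0.0073 with 16 positive and 15 negative.

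Among H4 genes in DMSO, HIST1H4J (ENSG00000197238.4, chr6:27824108-27824480, plus strand, GRCh38) was at 1.94 in the authors' deposited table (implied SE 0.60, unadjusted p = 0.00114, adjusted p = 0.308). That is 3.83 times the NTC level, with a 95% interval on the log2 scale from 0.77 to 3.10. It had the 48th smallest p and the 5th highest fold change of the 13007 genes with a p-value. Of its 50-base windows, 81.2% also occur in HIST1H4K, an H4 gene of the same cluster that was at -0.13 under TPA in the authors' deposited table and was not analysed in DMSO, so the assignment of reads between them is uncertain. HIST2H4A was at 0.60, HIST1H4H at 0.51, HIST4H4 at 0.42 and HIST2H4B at -0.44 in the authors' deposited DMSO table, none with an unadjusted p under 0.05. P-values were also rescaled for their narrow spread over all genes. HIST1H4J was then the 1 member of 23 called (adjusted p = 0.00424), where 0.838% of all genes were. After the rescaling 7 members had an unadjusted p under 0.05, where 7.82% of all genes did. The other adjustments tried covered the same 13007 genes, so the adjusted p of 0.308 for HIST1H4J could not change.

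H2B was the type with the most genes in DMSO, 10 of 12 positive with a median of 0.32. HIST2H2BF (ENSG00000203814.6, chr1:149782689-149812373, minus strand) was at 1.26 in the authors' deposited table (SE 0.56, unadjusted p = 0.0254, adjusted p = 1.00), or 2.40 times the NTC level. HIST1H2BC was at 0.93 in the authors' deposited table, with an interval from -0.0033 to 1.86 (unadjusted p = 0.0508). HIST1H2BE was at 0.77, HIST1H2BH at 0.65, HIST1H2BD at 0.63 and HIST1H2BJ at 0.36 in the authors' deposited DMSO table. Nearer to 0 were HIST3H2BB at 0.28, HIST2H2BE at 0.19, HIST1H2BN at -0.010 and the transcribed pseudogenes HIST2H2BD at 0.11 and HIST2H2BC at 0.034 in the authors' deposited DMSO table. HIST1H2BK was lowest of the H2B genes, at -0.35 (unadjusted p = 0.190) in the authors' deposited table; 74.1% of its windows occur in other genes, most of them in H2BFS.

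The remaining types had few genes in DMSO. HIST1H2AG (ENSG00000196787.3, chr6:27133042-27135291, plus strand), an H2A gene, was at 0.63 in the authors' deposited table (SE 0.31, unadjusted p = 0.0452, adjusted p = 1.00), with an interval from 0.013 to 1.24. HIST2H2AA3 was at 0.77, HIST1H2AC at 0.014 and HIST3H2A at -0.14 in the authors' deposited DMSO table. HIST1H3H, the H3 gene in that table, was at 0.40 (unadjusted p = 0.193), again from the authors' deposited values.

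**Figure D2:**
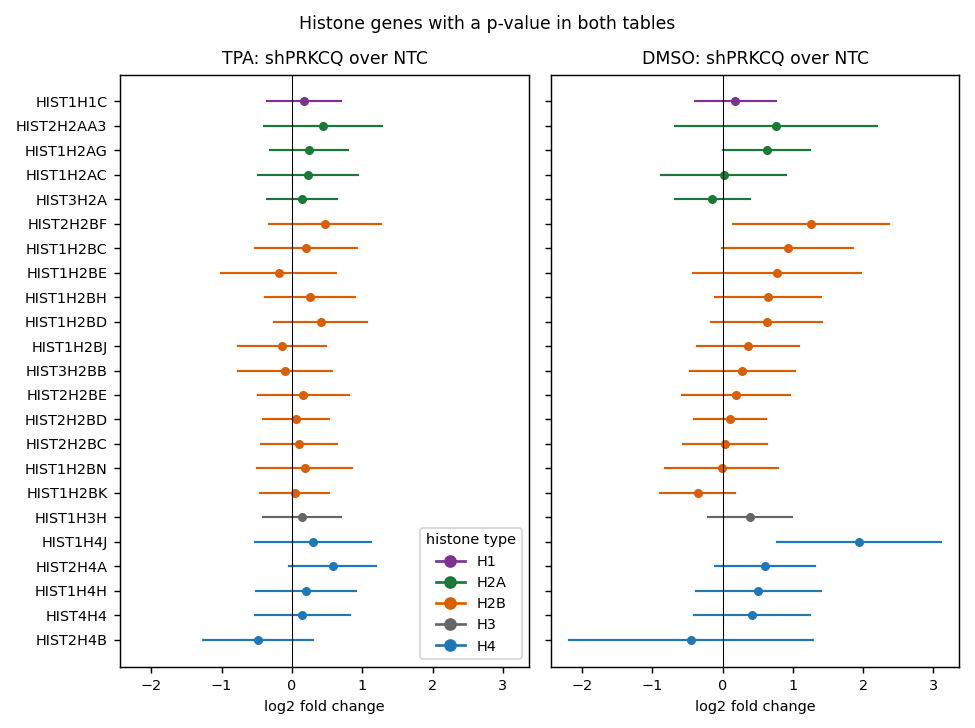
Log2 fold change of shPRKCQ over NTC with its 95% interval, computed from the authors' fold change and p-value, for the 23 histone genes with a p-value in both tables, in TPA (left) and DMSO (right), coloured by type. All 23 intervals include 0 in TPA; in DMSO those of HIST1H4J, HIST2H2BF and HIST1H2AG lie above 0.

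Across the HIST1 cluster, values above and below 0 lay among neighbours under TPA, with 38 of 57 genes above 0. In DMSO 11 of the 13 genes listed were above 0. Of those 13, only HIST1H2BE at -0.19 and HIST1H2BJ at -0.14 were below 0 under TPA in the authors' deposited table. Head-to-head pairs, in which genes on opposite strands start within 500 bases of each other, numbered 12, and 11 of them join an H2A with an H2B gene. Of 9 pairs with adjusted p-values for both genes under TPA, 4 had the same sign, and the genes of a pair differed by a median of 0.24 on the log2 scale. In DMSO 3 such pairs were listed and 2 had the same sign, both positive. HIST1H2BC and HIST1H2AC, whose starts are 219 bases apart, were at 0.20 and 0.23 under TPA and at 0.93 and 0.014 in DMSO in the authors' deposited tables. Of the other genes lying inside the histone cluster spans, 51 had a p-value under TPA with a median of 0.00054 and 16 in DMSO with a median of 0.029. None of those was called, and 2 had an unadjusted p under 0.05 in TPA and 1 in DMSO, all lower in shPRKCQ cells.

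**Figure D3:**
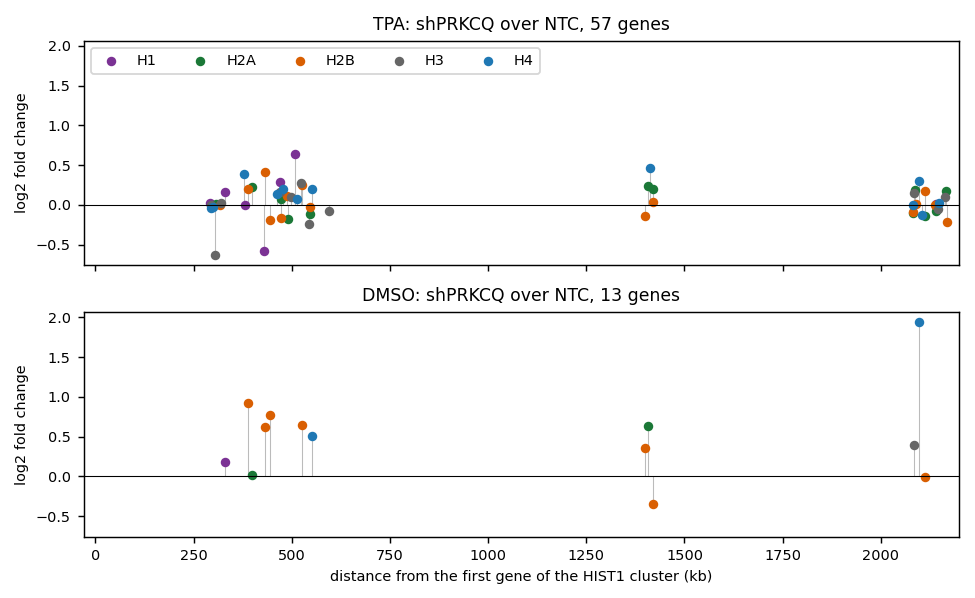
Log2 fold change of shPRKCQ over NTC against distance in kb from the first gene of the HIST1 cluster, in TPA (above, 57 genes) and DMSO (below, 13 genes), coloured by type. The genes fall into groups separated by stretches without histone genes, and under TPA values above and below 0 lie next to each other within a group; the highest DMSO point, at 1.94, is HIST1H4J.

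The promoters of the 3 members with an unadjusted p under 0.05 in DMSO are given from RefSeq (GRCh38.p14), from 250 bases before to 50 after the start of the gene. Capitals mark 3 motifs on either strand: TATAAA, the TATA box; CCAAT, a general promoter element; and ATTTGCAT, the octamer bound by Oct factors, a known element of H2B promoters. Neighbouring or overlapping matches run together in capitals. The windows are chr6:27823842-27824141 (plus strand) for HIST1H4J, chr1:149812321-149812620 (minus) for HIST2H2BF and chr6:27132793-27133092 (plus) for HIST1H2AG:
HIST1H4J: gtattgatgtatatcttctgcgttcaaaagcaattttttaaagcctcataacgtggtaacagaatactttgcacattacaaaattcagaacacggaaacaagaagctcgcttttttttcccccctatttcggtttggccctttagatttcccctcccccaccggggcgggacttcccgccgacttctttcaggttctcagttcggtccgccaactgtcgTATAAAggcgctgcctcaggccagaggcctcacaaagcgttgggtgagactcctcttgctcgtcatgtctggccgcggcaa
HIST2H2BF: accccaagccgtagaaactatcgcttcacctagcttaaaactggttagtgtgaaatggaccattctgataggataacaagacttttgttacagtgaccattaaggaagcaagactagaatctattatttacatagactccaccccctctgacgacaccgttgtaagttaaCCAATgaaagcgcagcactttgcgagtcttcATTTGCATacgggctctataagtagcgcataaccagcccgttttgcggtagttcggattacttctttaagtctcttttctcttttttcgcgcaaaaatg
HIST1H2AG: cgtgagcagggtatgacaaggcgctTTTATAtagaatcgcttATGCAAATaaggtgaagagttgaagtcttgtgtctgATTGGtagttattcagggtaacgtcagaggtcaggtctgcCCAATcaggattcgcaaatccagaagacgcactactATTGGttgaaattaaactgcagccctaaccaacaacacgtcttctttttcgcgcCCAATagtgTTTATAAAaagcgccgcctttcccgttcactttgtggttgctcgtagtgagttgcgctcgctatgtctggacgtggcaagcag

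HIST1H4J has the TATA motif, HIST2H2BF has CCAAT and the octamer, and HIST1H2AG has all 3, with CCAAT at 4 places. A promoter was found for 62 of the 90 members. TATAAA was in 41 of the 62 (66.1%), against 11.5% of all 35116 promoters in the table. CCAAT was in 52 (83.9%, against 34.6%), in each of the 6 H1, 16 H2A, 16 H2B and 11 H3 promoters but in 3 of 13 H4 promoters. The octamer was in 24 (38.7%, against 1.77%), 13 of them H2B and 11 H2A. Windows of head-to-head partners can overlap, as those of HIST1H2AG and HIST1H2BJ do, so the same motif can be counted for both genes. Among the 19 promoters of members listed in DMSO, 10 had TATAAA, 14 had CCAAT and 8 the octamer. A match is only a description of the letters in the window.

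Near-identical copies limit what single members of the HIST2 cluster show. HIST2H4A and HIST2H4B share 97.5% and 97.2% of their 50-base windows, yet were at 0.58 and -0.49 under TPA and at 0.60 and -0.44 in DMSO in the authors' deposited tables. Their signs were opposite in both treatments, and the interval of each includes 0. HIST2H3A and HIST2H3C have the same transcript sequence in all windows, and the authors' deposited TPA table gives both as -0.16. All windows of HIST2H2AA3 occur in HIST2H2AA4, and under TPA these genes were at 0.44 and -0.088 in the authors' deposited table. Values of such copies are uncertain singly. HIST2H2BF shares 25.7% of its windows with other genes, 12.1% with HIST2H2BA, and overlaps AC243772.2 on its own strand and FCGR1A on the opposite strand, while HIST1H2BN contains HIST1H2AL on its own strand. Without the members that share over 50% of their windows, 41 of 59 were positive in TPA and 16 of 18 in DMSO, with medians of 0.029 and 0.38.

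For the 23 genes in both tables, the treatments could be set side by side. Their medians were 0.17 in TPA and 0.40 in DMSO, and 19 of 23 were positive in each. The TPA value was below the DMSO value for 18 of the 23 (52.5% of all genes in both tables), with a median difference, TPA minus DMSO, of -0.25. Signs matched for 17 of the 23 (64.3% of all genes), 16 positive and 1 negative. These shares have unlike bases, since positive values made up 50.7% of all these genes in TPA and 52.3% in DMSO. With 19 of 23 members positive in each treatment, most signs would match even without a relation between the treatments. Pearson's r between the fold changes was 0.51 and Spearman's rho 0.59 over the 23 genes, against 0.38 and 0.40 over 13007; the tables share no library but may share cultures, lines and read assignment, and genes are not independent replicates.

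No histone gene had a knockdown effect called as different between TPA and DMSO. The difference was tested over the combined implied SE for all 13007 genes in both tables, taking the tables as independent, and 0 of 23 members and 0.0% of all genes passed after Benjamini-Hochberg adjustment. At an unadjusted p under 0.05 there was 1 member, HIST1H4J, and 0.438% of all genes. HIST1H4J was at 0.30 under TPA and 1.94 in DMSO in the authors' deposited tables, a difference of -1.64 with an interval from -3.07 to -0.21 (unadjusted p = 0.0249, adjusted p = 1.00). With the difference rescaled for its narrow spread over all genes, its adjusted p was 0.0555; 0 members passed (0.185% of all genes), while 4 had an unadjusted p under 0.05 (5.77% of all genes). HIST1H2BE was at -0.19 under TPA and 0.77 in DMSO in the authors' deposited tables, a difference of -0.96 with an interval from -2.41 to 0.49. Intervals as wide as this leave differences of either sign possible for most members. Whether the fold changes of either table were shrunken is not given, so they may not be on the same scale. The implied SEs, their intervals and the difference test take fold change and p-value to come from the same estimate, which was not tested. For the 13007 genes in both tables, the 0.05 and 0.95 quantiles of the fold change in TPA were -0.26 and 0.29. In DMSO these quantiles were -0.28 and 0.26. A difference in scale was not tested.

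**Figure D4:**
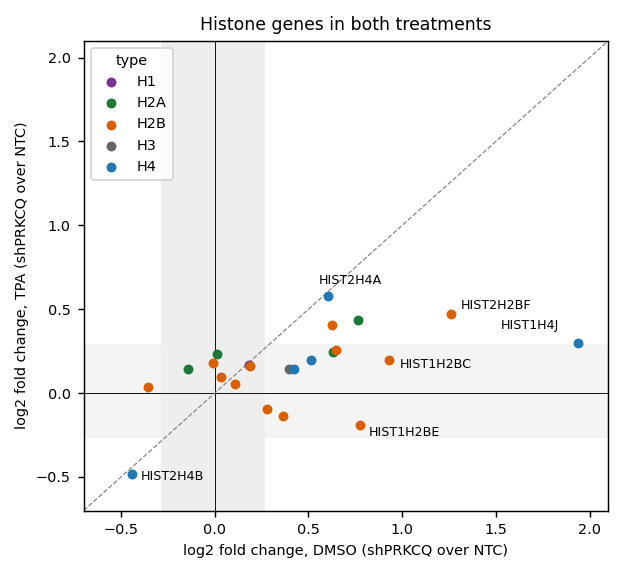
Log2 fold change of shPRKCQ over NTC under TPA (vertical) against DMSO (horizontal) for the 23 histone genes in both tables, coloured by type; grey bands span the central 90% of all genes in both tables and the dashed line marks equal values. 18 of the 23 points lie below the dashed line, HIST1H4J farthest at 0.30 under TPA and 1.94 in DMSO.

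The few RNAs without a poly(A) tail that were listed in DMSO also had positive fold changes. Under TPA 2340 such RNAs were listed, 257 of them with a p-value and a median log2 fold change of 0.00054. Only 5 were listed in DMSO. The rule that kept genes in DMSO is not stated, so the sign of those 5 may depend on it. The 5 listed there, RN7SK, SNORD3A, SNORD17, RN7SL1 and RN7SL2, were all positive, from 1.76 to 4.20 with a median of 2.40, and RN7SK was called in the authors' deposited table (adjusted p = 0.0149). Under TPA the same 5 were between -0.29 and 0.027 in the authors' deposited table, with a median of -0.049. Their part in the histone values was not tested.

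The genes that work with histone mRNAs and proteins were set beside the clusters. Variant histones outside the clusters, many of which are made outside S phase too, had medians of 0.037 over 12 genes under TPA and 0.053 over 8 in DMSO, with 0 called. Among them H2AFJ, an H2A variant, was at 0.48 (unadjusted p = 0.0352) under TPA by the authors' deposited table, and H3F3A, an H3.3 gene, at 0.13 under TPA and 0.23 in DMSO. Of 28 genes of histone mRNA transcription and 3′ processing, 23 were negative under TPA with a median of -0.072, and 8 were negative in DMSO with a median of 0.039; 0 were called. NPAT, the cyclin E and CDK2 target that switches on histone transcription, was at -0.23 under TPA (unadjusted p = 0.0397) and at -0.13 in DMSO, from the authors' deposited tables. SLBP was at -0.14 under TPA and 0.12 in DMSO in the authors' deposited tables (unadjusted p = 0.423 and 0.521).

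Histone chaperones, which carry histones to DNA, had medians of -0.088 in TPA and -0.0013 in DMSO over 19 genes, with 0 called. CABIN1, a subunit of the HIRA chaperone complex, had the smallest p of the list, at -0.32 under TPA and -0.35 in DMSO in the authors' deposited tables (adjusted p = 0.554 and 0.432). Genes of the S phase machinery were negative for 29 of 31 under TPA, with a median of -0.22, and for 18 of 31 in DMSO, with a median of -0.039; 0 were called. Under TPA the authors' deposited table gives -0.28 for RPA2, a single-strand DNA binding subunit (unadjusted p = 0.0887), -0.42 for the thymidylate synthase gene TYMS and -0.31 for MCM5, part of the replicative helicase. In the same treatment the 23 histone genes listed in both tables had a median of 0.17 with 19 positive, and the 31 other members with an adjusted p-value one of 0.0073 with 16 positive and 15 negative; no list was tested as a set.

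**Figure D5:**
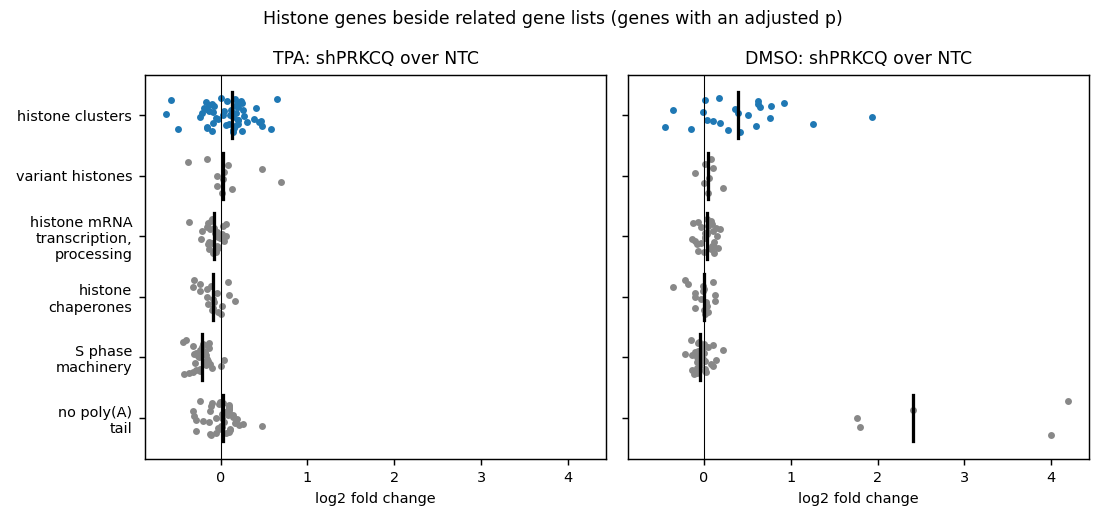
Log2 fold change of shPRKCQ over NTC for histone cluster genes and 5 related lists in TPA (left) and DMSO (right), each point a gene with an adjusted p-value and each bar a list's median. In DMSO the 23 histone genes have a median of 0.40 and the 5 RNAs without a poly(A) tail one of 2.40, while under TPA the S phase list lies at -0.22.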

How the data were processed

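Per the labels' protocols, RNA was selected for poly(A) tails and made into stranded libraries with molecular identifiers. STAR 2.5.3a, the RSEM quantifier 1.3.0, the DESeq2 package 1.18.1 and GRCh38 are named, without roles, in the submitters' processing notes. The model, any batch term and any shrinkage are not given there. Per the file headers, the authors deposited for each gene its log2 fold change and its p-value, raw and adjusted, for shPRKCQ against NTC over both lines.

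From these values a z-value, an implied standard error (fold change over z), a 95% interval and the difference test were computed in Python 3.11.15 with numpy 2.4.6, scipy 1.17.1 and pandas 2.3.3. Adjusted p-values differed from a Benjamini-Hochberg adjustment by a relative 0.00451 at most in TPA and 0.00235 in DMSO. The difference test was run on simulated data with normal errors of the implied size. There 4.86% to 5.04% of unchanged genes had p under 0.05. In these data 0.438% of all genes did, so the simulated spread did not match theirs. Annotation and transcripts are GENCODE release 29 (GRCh38), whose identifiers matched all 90 members. Promoters matched 62 by symbol, synonym and position.

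Members and lists were chosen with earlier results of these data known. Named were all members in both tables, any member with p under 0.05, the 8 highest and 8 lowest in TPA, the extremes of each type, and the 3 smallest p-values of each related list, of which a selection is printed. The edgeR fits foreseen for values per library were not run, since the tables hold none.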

Additional observations from a re-analysis of the deposited data

How the results depend on the processing

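Of 38 alternatives run on the counts and medians, 28 were classed as the same and 10 as moved. Several of the 28 could not have moved. In DMSO, settings limited to members with an adjusted p-value, or with a p-value in both treatments, used the same 23 members. Adjusting there over every gene with a p-value, or over those with one in both treatments, used the same 13007 genes. Under TPA 0 members had an unadjusted p under 0.05, so a stricter limit or fewer members could only give 0. Every median stayed above 0, while a count has no direction to turn. The TPA median of 0.038 was 0.17 over members in both tables, 0.13 over members with an adjusted p-value and 0.070 without those at the common fold change, and the mean was 0.061. Members with an unadjusted p under 0.05 were 0 in TPA and 3 in DMSO; at p under 0.1 they were 3 and 6, and at p under 0.01 there was 1 in DMSO. With z-values rescaled by their robust SD over all genes of a table they were 10 in TPA (16.9% of all genes) and 7 in DMSO (7.82%), and 3 (6.45% of all genes) and 1 (0.838%) members were called after adjustment: HIST1H1D, HIST1H3B and HIST2H4A in TPA, and HIST1H4J in DMSO. With the spread taken over genes with an adjusted p-value, 3 TPA members had p under 0.05 (7.39% of all such genes) and 0 were called (0.582%). For the difference between treatments 1 member had an unadjusted p under 0.05. The rescaling over genes with an adjusted p-value and the removal of members that share sequence or sit at the common TPA fold change were alternatives added after seeing the data and not planned before. No paired analysis was possible because there is no value per library in the comparison tables; for the same reason no replicate was left out. The effect of depth cannot be given, since it is unknown.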
